A study of Mus musculus with 9 samples.

Results

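Caveolae are small flask-shaped pits of the plasma membrane, and their coat is made of caveolins and cavins. The mRNAs of 6 coat genes were followed here through the progression of mouse ovarian surface epithelial (MOSE) cells: the caveolins Cav1 and Cav2, the cavins Cavin1, Cavin2 and Cavin3, and Ehd2, an ATPase of the caveola neck. The members were every probe set of the array whose only gene symbol was one of these 6 names, or the older names Ptrf for Cavin1, Sdpr for Cavin2 and Prkcdbp for Cavin3. This gave 15 of the 45101 probe sets, and 11 of the 15 were among the 13845 that passed a filter on low signals, which kept what reached over 500 somewhere among the 9 arrays.

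The cells came from C57BL6 mice and were not treated, edited or given a transgene. They became malignant by themselves over continued passage in one culture series, which the study describes as heterogeneous. Total RNA of 3 stages was hybridised to Affymetrix mouse arrays, 3 cultures per stage, and all stages were kept in the same high glucose medium with fetal bovine serum, insulin, transferrin and sodium selenite. MOSE-E, the early and non-malignant stage, was sampled at passages 13, 14 and 15. MOSE-I, the intermediate stage, was sampled at passages 63, 71 and 73. The paper states that MOSE-I cells can also form tumours in mice, although they were less invasive than MOSE-L cells. MOSE-L, the late and malignant stage, was sampled at passages 136, 142 and 143. Replicates 1 to 3 are named in that order. All arrays trace to a single line of passages, so a p-value measures the spread between these cultures and not between independently transformed lines.

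A caveola forms where caveolin-1 inserts into the inner leaflet of the membrane and binds cholesterol. Caveolin-2 joins it in mixed oligomers and depends on it to leave the Golgi. Cavin1 is required for caveolae in every tissue where it was tested in mice, Cavin2 shapes the curved membrane, and Cavin3 joins the coat through Cavin1. EHD2 forms rings at the neck that hold caveolae at the surface. Caveolae buffer membrane tension and are abundant in endothelium, fat cells, smooth muscle, fibroblasts and mesothelium, the lining to which the ovarian surface epithelium is related. Caveolin-1 has been described both as a brake on growth and, in some advanced tumours, as a factor of spread.

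The genes lie on 4 chromosomes of the mouse assembly GRCm38.p6. Cav2 (chr6:17281185-17289130) and Cav1 (chr6:17306335-17341328) are direct neighbours, with 17204 bases between the end of Cav2 and the start of Cav1. Cavin1 lies at chr11:100956736-100970617 and Cavin2 at chr1:51289126-51302960. Cavin3 (chr7:105480616-105482197) and Ehd2 (chr7:15946963-15967535) share chromosome 7 but lie far apart.

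The DNA before the start of the genes is shown because the results turn on how far these members changed alike, the neighbours Cav1 and Cav2 included. RefSeq promoter windows of GRCm38.p6 were given for 5 of the 6 members, with a second start for Cav1 and for Cavin1. The 250 bases upstream of the annotated start of 4 of them follow, 5′ to 3′ in the direction of transcription, in lower case. Capitals mark matches, on either strand, to the motifs searched: TEAD GGAATG, AP-1 TGANTCA, SP1 GGGCGG, a sterol element TCACNCCAC, forkhead TGTTTAC, the TATA box TATAAA and the CArG box. No matches overlap.
Cav1, chr6:17306085-17306334, plus strand: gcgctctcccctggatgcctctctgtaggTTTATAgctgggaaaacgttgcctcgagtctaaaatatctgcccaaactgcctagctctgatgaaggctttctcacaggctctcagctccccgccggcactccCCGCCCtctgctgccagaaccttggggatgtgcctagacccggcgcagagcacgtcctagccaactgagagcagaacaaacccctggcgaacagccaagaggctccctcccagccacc
Cav2, chr6:17280935-17281184, plus strand: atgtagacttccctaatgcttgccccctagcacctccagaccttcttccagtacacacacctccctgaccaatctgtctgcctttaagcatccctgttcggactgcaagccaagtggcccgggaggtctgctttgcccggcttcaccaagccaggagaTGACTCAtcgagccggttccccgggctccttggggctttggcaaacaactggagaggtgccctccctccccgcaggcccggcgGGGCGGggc
Cavin1, chr11:100970616-100970865, minus strand: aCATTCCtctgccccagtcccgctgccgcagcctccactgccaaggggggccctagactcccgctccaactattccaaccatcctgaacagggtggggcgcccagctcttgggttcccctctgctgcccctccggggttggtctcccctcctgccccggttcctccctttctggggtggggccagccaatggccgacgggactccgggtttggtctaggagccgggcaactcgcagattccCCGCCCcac
Cavin2, chr1:51288876-51289125, plus strand: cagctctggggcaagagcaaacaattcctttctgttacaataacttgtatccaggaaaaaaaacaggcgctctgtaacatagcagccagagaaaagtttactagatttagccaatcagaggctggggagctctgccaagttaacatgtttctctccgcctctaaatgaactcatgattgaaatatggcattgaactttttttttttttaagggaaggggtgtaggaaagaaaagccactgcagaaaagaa

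The first windows of Cav1, Cav2, Cavin1 and Ehd2 each held 1 SP1 match, starting 118, 9, 9 and 226 bases before the annotated start. An SP1 match of this kind was present in 32.7% of the 32851 promoter windows of all genes. Cav2 also had an AP-1 match 92 bases before the start, as 6.75% of all windows did, Cavin1 had a TEAD match 249 bases before it (12.6% of windows), and Cav1 a TATA match 221 bases before it (12.4% of windows). The second Cav1 window (chr6:17307390-17307639) held no match, and the second of Cavin1 overlaps the first with the same matches. The Cavin2 window held no match to any of the 7 motifs. It also differed in composition, with 40.4% G and C and 2 CpG pairs, against 59.6% and 10 in Cav1, 62.0% and 10 in Cav2, 67.6% and 12 in Cavin1, 58.0% and 12 in Ehd2, and medians of 52.4% and 6 over all windows. A match shows only that the letters are present, and binding of any factor was not measured.

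The deposited values were linear signals that the authors computed with the MAS 5.0 algorithm and scaled to a trimmed mean of 500 on every array. Changes below are differences of log2(signal + 50) from a limma fit of all 9 arrays, and p-values were adjusted by the Benjamini-Hochberg method over all 13845. Calls needed a change of 1 or more in size with an adjusted p no higher than 0.05. Array medians ran from 93.2 to 130.03. Within each stage 1 array stood apart, namely MOSE-E replicate 1, MOSE-I replicate 1 and MOSE-L replicate 3, whose lowest correlations with arrays of their own stage were 0.951, 0.939 and 0.889. The ratio of 3′ to 5′ signal of the beta-actin control probe sets, which grows as RNA breaks down, was 1.12 to 1.25 on the MOSE-E arrays, 1.31 to 1.38 on the MOSE-I arrays and 1.34, 1.45 and 1.83 on MOSE-L replicates 1, 2 and 3. It was thus higher on every MOSE-I and MOSE-L array than on any MOSE-E array, and its part in the changes of the coat genes was not tested. That of the Gapdh controls was 0.727 on MOSE-L replicate 3, the lowest of the 9. Of 12 markers of the ovarian surface epithelium and mesothelium, Lhx9 stayed under 200 on all 9 arrays. Krt18 and Upk3b averaged at least 8680.0 in every stage. Krt7 averaged 129 ± 63.6 in MOSE-L cells, against 3328 ± 476 in MOSE-E cells (SD, n = 3 each). Of the 10 tested markers 5 were called lower and 0 higher in MOSE-L against MOSE-E cells, beside 7.49% and 8.11% of all tested genes.

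In malignant MOSE-L cells most of the caveolar coat was expressed at a lower level than in MOSE-E cells. Cav1, Cavin1, Cavin2, Cavin3 and Ehd2 fell, the mean signals of their brightest probe sets lying between 0.220 and 0.463 of those in MOSE-E cells, and Cav2 did not pass the test. Of the 11 tested probe sets 8 were called lower and 0 higher, where 7.37% of all tested probe sets were called lower and 7.63% higher in this comparison. In 9 of the 11 all 3 MOSE-L signals were below all 3 MOSE-E signals, which held for 22.4% of all tested probe sets. Counted by gene, with the brightest probe set of each, 5 of 6 were lower with a median change of -1.87, beside a median of 0.03 over all 7952 tested genes, of which 7.49% were called lower and 8.11% higher. RNA from fewer expressing cells and less RNA per cell cannot be told apart in such cultures.

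**Figure D1:**
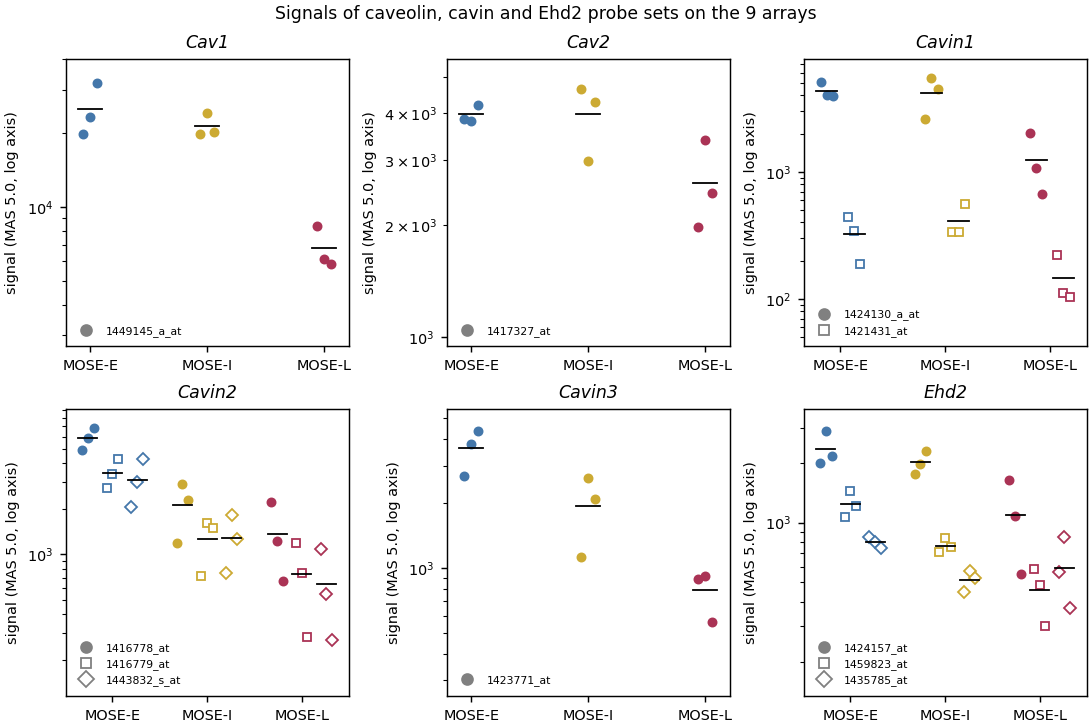
MAS 5.0 signals (log axes) of the 11 tested probe sets on the 9 arrays, by stage and in the order of replicates 1 to 3, with filled points for the brightest probe set of each gene, open points for its further probe sets and a black line at each stage mean. The MOSE-I points of Cav1 and Cavin1 overlap those of MOSE-E and lie above those of MOSE-L, the MOSE-I points of Cavin2 and Cavin3 lie below those of MOSE-E, and the stage means of Cav2 lie closest together.

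Cav1, the scaffold of the coat, was measured by 1 probe set, 1449145_a_at. Its signals were 8348, 6144 and 5884 in MOSE-L cells, against 19919, 23212 and 32032 in MOSE-E cells. The brightest MOSE-L culture thus lay well below the dimmest MOSE-E culture. Cav1 averaged 6792 ± 1354 in MOSE-L and 25054 ± 6263 in MOSE-E cells (SD, n = 3 each), a change of -1.86 (SE 0.22, adjusted p = 0.00025, limma). Only 2.56% of all tested probe sets had a lower change.

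Cav2, the partner of Cav1, gave 1976, 3404 and 2443 on probe set 1417327_at in MOSE-L cells, against 3874, 3828 and 4221 in MOSE-E cells. The groups did not overlap, but MOSE-L replicate 2 came close to the dimmest MOSE-E culture. The change was -0.63 with a 95% interval of -1.16 to -0.11 and an adjusted p of 0.071, so it did not pass. The change of Cav1 minus that of Cav2 was -1.23. Within an array, the Cav1 log2 value minus the Cav2 log2 value was 0.84 to 2.05 in MOSE-L and 2.35 to 2.91 in MOSE-E cells. An exact permutation test of that difference gave p = 0.1, two-sided, the smallest that 3 arrays against 3 allow, and 0.5 after adjustment over 5 member pairs. The second Cav2 probe set, 1425955_at, stayed between 47.5 and 157 on all 9 arrays and was below the filter.

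Cavin1, without which caveolae are not made in mice, was read by 2 tested probe sets. On 1424130_a_at the signals were 2005, 1077 and 665 in MOSE-L cells, against 5062, 4019.8 and 3955 in MOSE-E cells, again without overlap. The means were 1249 ± 686 and 4346 ± 621 (SD, n = 3 each) in MOSE-L and MOSE-E cells, and the change was -1.88 (SE 0.37, adjusted p = 0.0049). The dimmer 1421431_at passed the filter only through 1 MOSE-I array at 554. It gave 223, 112 and 104 in MOSE-L and 444, 343 and 189 in MOSE-E cells, which overlap, and its change of -0.92 had an adjusted p of 0.0791. A further Cavin1 probe set, 1453891_at, read 5.64 to 50.2 over the 9 arrays and was not tested.

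Cavin2, which shapes the curved membrane, was read by 3 probe sets. Probe set 1416778_at gave 2219, 1227 and 665 in MOSE-L cells, against 4924, 5871 and 6798 in MOSE-E cells, a change of -2.20 (SE 0.41, adjusted p = 0.0038). The other 2 probe sets, 1416779_at and 1443832_s_at, had changes of -2.32 and -2.34 with adjusted p of 0.0043 and 0.0047. The 3 probe sets therefore gave nearly the same result, and over the 9 arrays their log2 values correlated at 0.981 to 0.993.

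Cavin3, first known as a binding partner of protein kinase C delta, gave 894, 919.8 and 563 in MOSE-L cells, against 2691, 3789 and 4334 in MOSE-E cells. The change was -2.12 (SE 0.32, adjusted p = 0.0012), and the stage means were 792 ± 199 and 3605 ± 837 (SD, n = 3 each) in MOSE-L and MOSE-E cells. The changes of the 3 cavins lay close together. Cavin1 differed from Cavin2 by 0.32 and from Cavin3 by 0.24 in change, with exact permutation p of 0.4 and 0.5, and Cav1 from Cavin1 by 0.02 (exact p = 0.9). With 3 arrays a side these tests do not show equal change.

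Ehd2 had 5 probe sets, and the 3 that passed the filter did not give one answer. On 1424157_at the signals were 1639.7, 1075 and 550.5 in MOSE-L cells, against 1996, 2902 and 2152 in MOSE-E cells, a change of -1.18 (adjusted p = 0.0231). On 1459823_at they were 581, 486 and 301 in MOSE-L, against 1066, 1435 and 1215 in MOSE-E cells, a change of -1.38 (adjusted p = 0.0020). Both were lower in every MOSE-L culture than in any MOSE-E culture. On 1435785_at the MOSE-L signals of 565, 845 and 371 overlapped those of MOSE-E cells, 849, 795 and 744, and the change of -0.46 did not pass (adjusted p = 0.196). Probe set 1435785_at also followed the others poorly over the 9 arrays, with correlations of 0.494 and 0.628, against 0.917 between the first pair. Probe sets 1424158_at and 1427729_at stayed under the filter, with 11.4 to 282 and 1.29 to 88.9 over the 9 arrays. The call on 1424157_at was lost without MOSE-E replicate 2 (adjusted p = 0.0891), without MOSE-E replicate 3 (0.0614), without MOSE-L replicate 3 (change -0.78), without the 3 arrays that stand apart (-0.89) and with only the 2 stages compared in the fit (adjusted p = 0.0522). Under the methods' t-test, run with equal variances, 8 probe sets were lower by over 2-fold at an unadjusted p of at most 0.05, and 0 after Benjamini-Hochberg adjustment.

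At MOSE-I, the first step, Cavin2 was the one member that passed the test, and it fell. Its signals on 1416778_at were 1189, 2902 and 2299 in MOSE-I cells, against 4924, 5871 and 6798 in MOSE-E cells, and the mean was 0.363 of the MOSE-E mean. The change was -1.52 (SE 0.41, adjusted p = 0.0419). The other 2 Cavin2 probe sets had changes of -1.47 and -1.27 with adjusted p of 0.0566 and 0.0916. So 1 of 11 member probe sets was called lower and 0 higher, beside 3.76% lower and 1.97% higher of all tested probe sets. The call was not firm: it was lost without MOSE-E replicate 2 or 3, without any 1 of the MOSE-I replicates and without MOSE-L replicate 2 (adjusted p = 0.0547 to 0.161), and all 3 Cavin2 probe sets were called without MOSE-L replicate 1 or 3, and without the 3 arrays that stand apart.

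Cavin3 came next in this step, with 1122, 2629 and 2099.9 in MOSE-I cells, against 2691, 3789 and 4334 in MOSE-E cells. The groups did not overlap, but the change of -0.92 had an adjusted p of 0.0838. In 6 of the 11 probe sets all MOSE-I signals were below all MOSE-E signals (3 of Cavin2, 1 of Cavin3 and 2 of Ehd2), beside 19.8% of all tested probe sets. Cav1 and Cavin1 had not moved beyond their spread. Cav1 gave 19920.5, 24166 and 20283 in MOSE-I cells, against 19919, 23212 and 32032 in MOSE-E cells, a change of -0.20 with a 95% interval of -0.67 to 0.27. Cavin1 gave 2626, 5489 and 4496 in MOSE-I cells on 1424130_a_at, where MOSE-E cells gave 5062, 4019.8 and 3955, a change of -0.10 with an interval of -0.91 to 0.71. Cav2 stood at -0.02 (interval -0.54 to 0.50). The change of Cavin2 minus that of Cav1 was -1.32, and minus that of Cavin1 -1.42, a pair of comparisons chosen after the values were seen, each with an exact permutation p of 0.1, the smallest possible here.

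**Figure D2:**
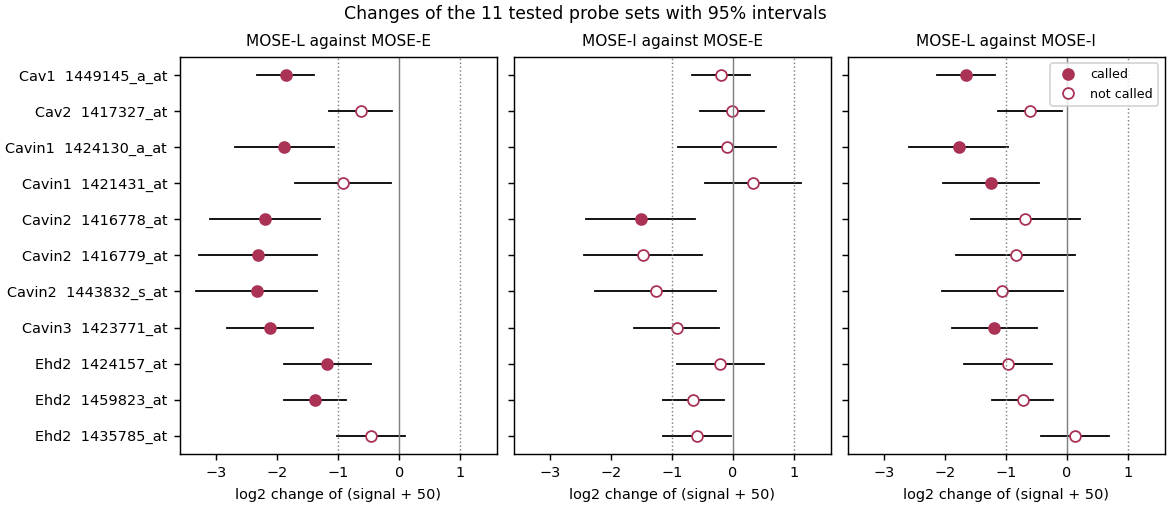
Change in log2(signal + 50) of the 11 tested probe sets with 95% intervals from the limma fit in the 3 comparisons, with filled points where the probe set was called and dotted lines at -1 and 1. In MOSE-L against MOSE-E 8 of 11 were called lower, in MOSE-I against MOSE-E 1 (Cavin2), and in MOSE-L against MOSE-I 4 (Cav1, Cavin1, Cavin3 and the dim Cavin1 probe set 1421431_at, which passed the filter through 1 MOSE-I array).

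In the second step, from the intermediate to the late stage, Cav1, Cavin1 and Cavin3 fell. Cav1 gave 8348, 6144 and 5884 in MOSE-L cells, against 19920.5, 24166 and 20283 in MOSE-I cells, a change of -1.66 (SE 0.22, adjusted p = 0.00086). Cavin1 changed by -1.78 on 1424130_a_at (adjusted p = 0.0085), with 2005, 1077 and 665 in MOSE-L cells, against 2626, 5489 and 4496 in MOSE-I cells. On 1421431_at the signals were 223, 112 and 104 in MOSE-L and 339, 336 and 554 in MOSE-I cells, a change of -1.25 (adjusted p = 0.0286). That probe set entered the test through a single array of MOSE-I, the stage where it is high, so its call is no further support for Cavin1. Cavin3 changed by -1.20 (adjusted p = 0.0217). This made 4 of 11 probe sets lower and 0 higher, beside 5.85% and 8.05% of all tested probe sets. The count was 3, without 1421431_at, where the filter asked for over 1000, for a stage mean over 500 or for a mean of all arrays over 500. In 6 of 11, with 1421431_at again among them, all MOSE-L signals were below all MOSE-I signals, beside 23.2% of all. The comparison shares the MOSE-L arrays with the first one and the MOSE-I arrays with the second, so the 3 sets of changes are not independent.

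Cavin2 did not pass in the second step. Its changes were -0.68, -0.85 and -1.07 with adjusted p of 0.220, 0.163 and 0.0955, and on 1416778_at MOSE-L replicates 1 and 2, at 2219 and 1227, were within the MOSE-I range of 1189 to 2902. Ehd2 had changes of -0.97 and -0.73 with adjusted p of 0.0479 and 0.0383, short of the required size, and 0.13 on 1435785_at. Cav2 changed by -0.61 (adjusted p = 0.0745). The count of 4 was 8 without MOSE-L replicate 1, and 2 without MOSE-I replicate 2, MOSE-I replicate 3 or MOSE-L replicate 3. Cav1 and Cavin1 on 1424130_a_at held their calls when any single array was left out. Without MOSE-I replicate 3 the Cavin1 probe set 1421431_at failed the filter and was not tested, and its call was lost when MOSE-I replicate 1, MOSE-I replicate 2, MOSE-L replicate 2 or MOSE-L replicate 3 was left out (adjusted p = 0.0528 to 0.0810), and that on Cavin3 when MOSE-I replicate 2, MOSE-I replicate 3 or MOSE-L replicate 3 was (0.0667 to 0.0729).

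Set on the log2 scale against the MOSE-E mean of each gene, the median of the 6 members was -0.22, -0.02 and 0.16 on the MOSE-E arrays, -0.55, -0.32 and -0.14 on the MOSE-I arrays and -1.23, -1.92 and -2.30 on the MOSE-L arrays. The 3 lowest medians were thus the 3 MOSE-L cultures, in which every member was below its MOSE-E mean. The level varied within a stage too. MOSE-L replicate 3 was the lowest MOSE-L array for 5 of the 6 genes, all but Cav2, and MOSE-I replicate 1 the lowest MOSE-I array for 5 of 6, again all but Cav2. MOSE-E replicate 1 was lowest for 4 of 6. These are the 3 arrays that stood apart over all probe sets, and without them together 7 of the 11 probe sets were still called lower in MOSE-L against MOSE-E cells.

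Over the 9 arrays the log2 values of Cav1 and Cavin1 correlated at 0.911, of Cavin2 and Cavin3 at 0.934, and of Cavin1 and Ehd2 at 0.913. Cav2 followed the others least, at 0.670 with Cav1, its direct neighbour and partner, and 0.349 with Cavin2. These coefficients describe 9 arrays in 3 stages, and most of the spread is the difference between stages. Among all 7952 genes, the 5 whose course was most like that of Cav1 were Gng12 (0.993), a G protein gamma subunit, Bend4 (0.985), Fscn1 (0.984), the actin bundler fascin, Mmp2 (0.981), a gelatinase, and Tpm2 (0.977), an actin-binding tropomyosin. That these genes are lower in MOSE-L cells follows from how they were chosen, and their changes ran from -1.64 for Fscn1 to -5.53 for Tpm2. Bend4 passed the filter only through MOSE-E arrays, and Mmp2 and Tpm2 only through MOSE-E and MOSE-I arrays, where they are high. Gng12 had 1051, 1019.1 and 911 in MOSE-L cells, against 3010.4, 3667 and 4939 in MOSE-E cells. The 5 most like Cavin1 were Nat2 (0.972), Vamp7 (0.970), a SNARE of vesicle fusion, Ubqln2 (0.968), a ubiquilin, Aida (0.967) and Nxn (0.966), a thioredoxin-like oxidoreductase. Nat2 passed the filter only through MOSE-E and MOSE-I arrays. Cavin1 itself ranked 125th among the genes most like Cav1, and Cav2 1367th.

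Of 7 tested genes for proteins that work at caveolae beside the coat, 1 was lower and 1 higher in MOSE-L against MOSE-E cells, with a median change of -0.20. Set beside the 7.49% lower and 8.11% higher over all tested genes, counts of 1 in 7 show no more than single genes. Flna, the filamin that ties caveolae to actin, gave 2511, 5195 and 4488 in MOSE-L cells, against 5099, 13715 and 13113 in MOSE-E cells (-1.31, adjusted p = 0.026). One MOSE-L culture lay above the dimmest MOSE-E culture. Ror1, a receptor kinase reported to hold cavin1 and caveolin-1 together in human lung cancer cells, gave 511, 1090.5 and 459 in MOSE-L cells, against 312, 188 and 136 in MOSE-E cells (1.45, adjusted p = 0.0226). It passed the filter only through MOSE-L arrays, where it is high. Ehd1, a close relative of Ehd2 that serves endosome recycling, changed by -0.91 (adjusted p = 0.0131), under the required size. Dnm2, which encodes dynamin 2, went the other way, by 0.56 (adjusted p = 0.0499), also under that size. It passed the filter only through MOSE-I and MOSE-L arrays. The paper lists Dnm2 among the genes raised in MOSE-L against MOSE-E cells. In MOSE-I against MOSE-E cells Flna alone of the 7 was called (-1.64), where 3.61% of all tested genes were lower and 2.29% higher. In MOSE-L against MOSE-I cells Ror1 alone was called, as higher, where 6.04% of all tested genes were lower and 7.38% higher.

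The muscle forms Cav3 and Cavin4, with Pacsin1 and Nostrin, stayed under a signal of 200 on all 9 arrays. Neither flotillin, the scaffolds of a second kind of membrane domain, was called in any comparison, although Flot2 changed by -0.98 between MOSE-L and MOSE-E cells (adjusted p = 0.0039), with 873, 813 and 654 in MOSE-L, against 1554, 1522 and 1643 in MOSE-E cells. Flot1 stood at 0.41 (adjusted p = 0.285).

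Receptors and transporters known to reside in caveolae were counted next. Of 9 tested genes 0 were called in MOSE-L against MOSE-E cells, with a median change of 0.43. At an unadjusted p under 0.05, 4 were higher and 0 lower. The shares among all tested genes were 7.49% lower and 8.11% higher for calls, and 19.3% and 21.4% at that unadjusted p. Insr (1.04) passed the filter only through MOSE-L cells and Pdgfra (1.53) only through MOSE-I and MOSE-L cells, where they are high. Their upward changes are therefore favoured by the filter. At an adjusted p of at most 0.05 alone, Tgfbr1 (0.76, adjusted p = 0.0094) and Tgfbr2 (0.78, adjusted p = 0.0359) would have passed. Between MOSE-L and MOSE-I cells 4 were higher: Insr, the insulin receptor (1.48), Itgb1, the beta-1 integrin (1.31), and the TGF-beta receptors Tgfbr1 (1.31) and Tgfbr2 (1.10). Pdgfrb was the only one lower (-2.01). Insr passed the filter only through MOSE-L replicate 3 and Pdgfrb only through MOSE-I arrays, the stages where they are high. Over all tested genes 7.38% were called higher and 6.04% lower in this comparison. Itgb1 gave 7306, 10929 and 10022 in MOSE-E cells, 4224, 3839 and 3534 in MOSE-I cells and 7105, 11007 and 11510.2 in MOSE-L cells. Its low stage was therefore MOSE-I, where the change against MOSE-E cells was -1.26 (adjusted p = 0.0116), while Pdgfrb was high at MOSE-I (1.74, adjusted p = 0.0158).

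Clathrin coats serve the other main endocytic route. Of 21 tested genes of clathrin and its adaptors, 0 were called in either direction in MOSE-L against MOSE-E cells by limma, with a median change of -0.19, where 2 were higher and 5 lower at an unadjusted p under 0.05. Those shares over all tested genes were 7.49% lower and 8.11% higher for calls, and 19.3% lower and 21.4% higher at that unadjusted p. Clathrin heavy chain, Cltc, the brightest of them, gave 13499.6, 20028 and 15231 in MOSE-L cells, against 14176, 15061 and 12822 in MOSE-E cells (0.20, adjusted p = 0.487). Itsn1, the scaffold intersectin, was the only one called in MOSE-I against MOSE-E cells (-1.10, adjusted p = 0.0090), where 3.61% of all tested genes were lower and 2.29% higher. None was called in MOSE-L against MOSE-I cells, where 6.04% of all tested genes were lower and 7.38% higher. At an adjusted p of at most 0.05 alone, Ap2m1 (-0.72) would have passed in MOSE-L against MOSE-E cells. In MOSE-L against MOSE-I cells Ap2m1 (-0.999), Bin1 (-0.76) and Ap2s1 (-0.73) would have passed as lower, and Itsn1 (0.78) and Fcho2 (0.56) as higher.

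**Figure D3:**
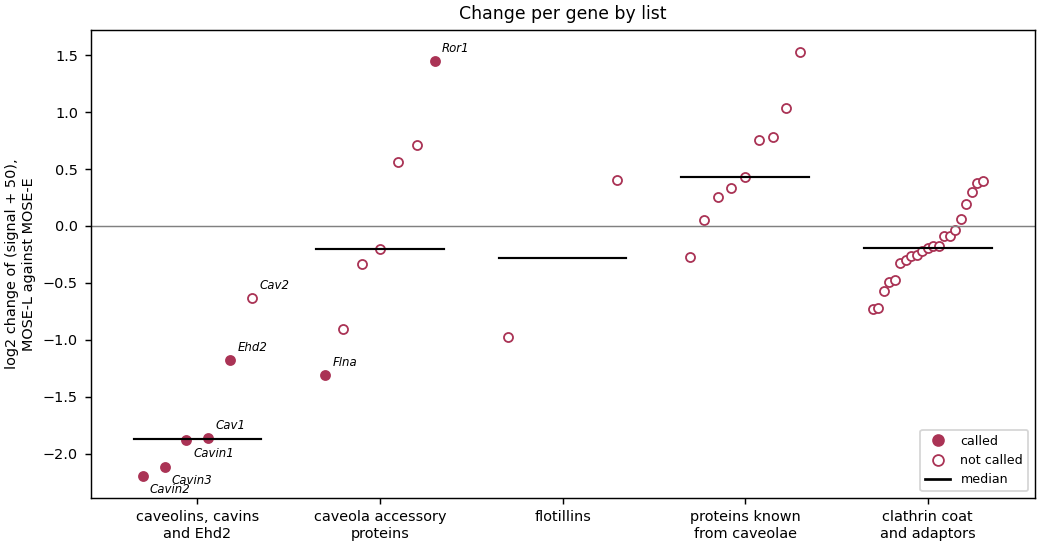
Change in log2(signal + 50) in MOSE-L against MOSE-E cells of each tested gene, by its brightest probe set, for the 6 coat genes and 4 lists, with filled points where the gene was called and a line at the median of each list. The medians were -1.87 for the coat genes, -0.20 for the accessory proteins, -0.29 for the flotillins, 0.43 for proteins known from caveolae and -0.19 for clathrin and its adaptors.

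Genes beside the members on the chromosome were tested as well. Up to 3 tested genes on each side, within 6 places, gave 17 neighbours that are not members, and 0 of the 17 were called in MOSE-L against MOSE-E cells by limma, where 7 had an unadjusted p under 0.05. Over all tested genes 40.7% had such a p, and 7.49% were called lower and 8.11% higher. At an adjusted p of at most 0.05 alone, Nabp1 beside Cavin2 (-0.83, adjusted p = 0.0208) would have passed as lower. Napa beside Ehd2 (0.88, adjusted p = 0.0067) and Coasy beside Cavin1 (0.95, adjusted p = 0.0253) would have passed as higher. Near Cav1 and Cav2, Tes changed by 0.16, Capza2 by -0.12, St7 by 0.73 and Met, the receptor of hepatocyte growth factor, by -0.67 (adjusted p = 0.106). Met gave 2521, 2771 and 3009.6 in MOSE-L cells, against 3376, 7171 and 7408 in MOSE-I cells, and was called lower in that step (-1.02, adjusted p = 0.026), as Cav1 was. Cav1 was thus the one tested gene of this stretch called in MOSE-L against MOSE-E cells. Beside Cavin1, Coasy was called higher in MOSE-I against MOSE-E cells (1.11, adjusted p = 0.029), having passed the filter through MOSE-I and MOSE-L arrays, and Stat3, at 0.78 in MOSE-L against MOSE-E cells, was not called. In MOSE-I against MOSE-E cells 1 of the 17 was thus higher and 0 lower, beside 2.29% and 3.61% of all tested genes. In MOSE-L against MOSE-I cells 1 was lower and 0 higher, beside 6.04% and 7.38%.

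**Figure D4:**
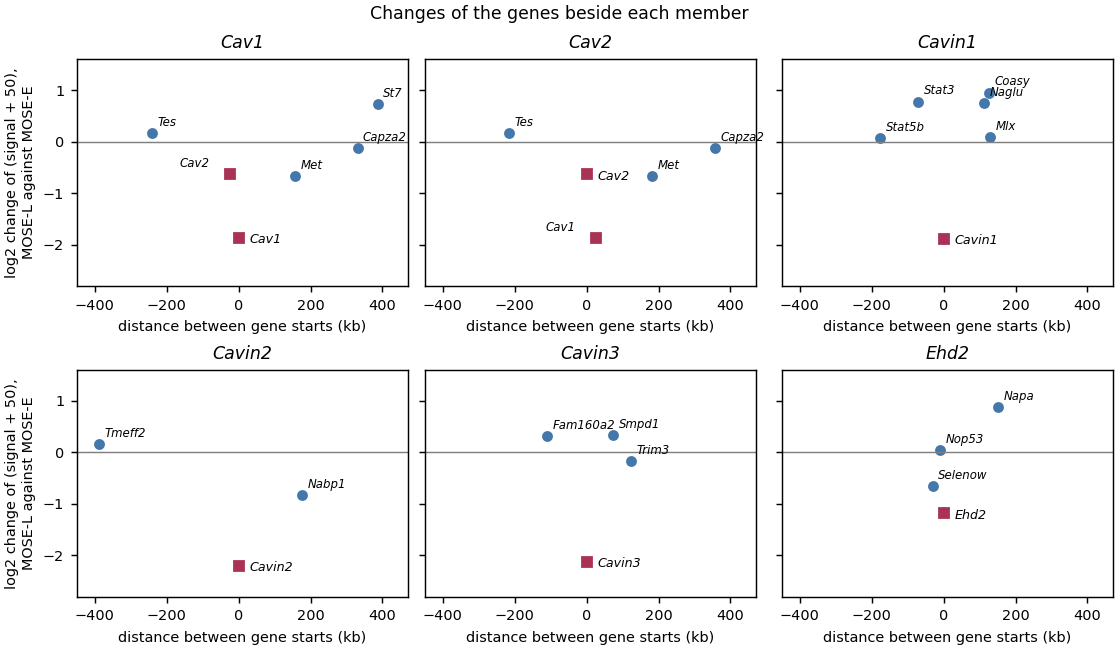
Change in log2(signal + 50) in MOSE-L against MOSE-E cells of each member (red squares) and of the tested genes beside it (blue circles), by the distance between gene starts in kb, 1 panel per member. The 17 neighbours lie between -0.83 (Nabp1) and 0.95 (Coasy), and none was called.

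Other cell types rich in caveolae were looked for by their markers. Endothelial markers (8 measured) summed to 440 to 495 in MOSE-L and 531 to 643 in MOSE-E cells, 7 of the 8 were under 200 on all arrays, Pecam1 and Cdh5 included, and none passed the filter. The 4 fat cell markers measured, Adipoq, Fabp4, Cidec and Lep, were under 200 on all arrays. Of the smooth muscle markers 3 of 4 tested were lower in MOSE-L against MOSE-E cells (Tagln, Acta2 and Actg2). In MOSE-I against MOSE-E cells 2 of 4 were lower (Tagln by -3.65 and Actg2 by -2.50), beside 3.61% of all tested genes. Actg2 passed the filter only through MOSE-E arrays and Tagln through MOSE-E and MOSE-I arrays. The 7 measured had sums of 33315 to 94891 over the MOSE-E arrays, 7094 to 30374 over the MOSE-I arrays and 652 to 1866 over the MOSE-L arrays. Of the fibroblast markers 2 of 5 were lower (Col1a1 and Col1a2) and 1 higher (Dcn), with sums of 36876 to 48653 in MOSE-L and 52049 to 125789 in MOSE-E cells. Of the surface epithelial markers 5 of 10 were lower (Krt7, Krt8, Krt19, Lrrn4 and Cdh2) and 0 higher. Wt1 went the other way, by 0.94 (adjusted p = 0.0327), under the required size. In MOSE-L against MOSE-I cells Wt1 (1.09) and Msln (1.90) were called higher and Krt8 (-1.75) lower. Msln was lowest at MOSE-I, with a mean of 991, after a called fall of -2.41 from the early stage (adjusted p = 0.0036, limma). Its change in MOSE-L against MOSE-E cells was -0.51 and was not called. At the first step 4 of 10 surface epithelial markers were called lower (Krt7, Msln, Lrrn4 and Cdh2), beside 3.61% of all tested genes. So were 2 of 5 fibroblast markers (Col1a1 and Col3a1), and 0 of either list were higher. Over all tested genes 7.49% were called lower and 8.11% higher in MOSE-L against MOSE-E cells, and 6.04% and 7.38% in MOSE-L against MOSE-I cells. Surface epithelial cells in culture also express many of the smooth muscle and fibroblast genes, and the part of other cells in the fall of the coat genes was not tested.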

How the data were processed

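Total RNA of 9 MOSE cultures was hybridised to Affymetrix whole-genome mouse arrays. The deposited intensities are linear signals per probe set, which the authors computed with MAS 5.0 and scaled to a trimmed mean of 500; detection calls were not used here. Probe sets were named through the platform annotation, in which 34958 name 1 gene, 932 several and 9211 none, and only the first kind was used.

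The 64 control probe sets were left out, as were those never over 500, since the study filters on the highest signal. Signals became log2(signal + 50), where the added 50 understates changes of dim genes. limma 3.58.1 in R 4.3.3 fitted a mean for each stage with an intensity trend in the variances (residual degrees of freedom 6, prior 4.90 in the median). Stage means are given with the SD of 3 arrays. The small number of arrays limits the precision. The script was tested on simulated data.

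A gene was represented by its brightest probe set. The text names all member probe sets, up to 4 called genes of each fixed list with the largest change (or the brightest where none was called), the nearest tested neighbours, and the 5 genes most correlated with Cav1 and with Cavin1; a few further list genes were chosen after their values were seen. The members and the lists were chosen with earlier results of these data known. Alternatives changed the added value, scaling, filter, variance trend, arrays in the fit, thresholds, replicate block and test, and left out each array; leaving out the 3 arrays that stand apart was added after seeing the data. Genes named by no probe set alone, such as Pacsin2 and Picalm, were not analysed here.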

Additional observations from a re-analysis of the deposited data

How the results depend on the processing

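The 8 probe sets called lower in MOSE-L against MOSE-E cells were 7 to 9 when single arrays were left out and 7 or 8 under the other alternatives, except 0 under the methods' t-test with Benjamini-Hochberg adjustment (8 unadjusted). The 1 probe set called lower in MOSE-I against MOSE-E cells became 2 with an added value of 200 or the methods' t-test unadjusted, 3 with only the 2 stages in the fit or without the 3 arrays that stand apart, and 0 without a signal filter, without a variance trend, at an adjusted p of 0.01, with the replicate block or with the methods' t-test after adjustment. Leaving out single arrays gave 0 to 3. The 4 lower in MOSE-L against MOSE-I cells became 6 with median centring or no minimum change, 3 with an added value of 200, the stricter filters, the methods' t-test unadjusted or without the 3 arrays that stand apart, 2 at an adjusted p of 0.01 and 0 with the methods' t-test after adjustment, and leaving out single arrays gave 2 to 8. Of the changes of single probe sets, 750 values under alternatives kept their side of the threshold, 41 lost a call and 19 gained one, and none reversed a called change. The causes were not tested.

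Replicate numbers were not used as pairs in the main fit. Deviations of arrays with the same number correlated at -0.02 to 0.06 between MOSE-I and MOSE-E, and -0.11 to -0.03 between MOSE-L and MOSE-I. Between MOSE-L and MOSE-E they correlated at 0.41 for replicate 1, 0.26 for replicate 2 and 0.02 for replicate 3, so some deviation was shared there. With the replicate block the counts were 8, 0 and 4. The precision is limited by 3 arrays per stage, and 4 of the 15 member probe sets stayed under the filter, so that nothing is shown for them.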
